A study of Mus musculus with 6 samples.

Results

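The genes described here encode the rod-derived cone viability factors (*Nxnl1* and *Nxnl2*), the receptor basigin (*Bsg*), carriers of glucose (*Slc2a1* and *Slc2a3*), carriers of lactate and other monocarboxylates (*Slc16a1*, *Slc16a3* and *Slc16a7*) and *Txnip*, a brake on glucose uptake. They were taken by symbol, 9 of the 46078 genes in the table of raw counts, with earlier results of these data known. RNA-seq was performed on cones sorted from retinal explants of rd1TN-XL mice, which carry the rd1 defect of the rod gene *Pde6b* and express the calcium sensor TN-XL in cones under the human red opsin promoter. Every library of both groups came from this genotype, so no wild-type retina is compared. Explants with attached pigment epithelium were set up at postnatal day 19 and cultured for 7 days with 10 nM trichostatin A (TSA), an inhibitor of histone deacetylases, or with DMSO, the solvent, in the control. Each group had 3 libraries, each from pooled explants of different animals. The sample source gives harvest at day 26, whereas a time label runs from day 26 to 28 in the controls and from day 29 to 31 in the TSA samples. Under that label, age and treatment cannot be told apart.

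Cones burn large amounts of glucose, much of it by aerobic glycolysis that ends in lactate, and renew their outer segments with its products. RdCVF, the short product of *Nxnl1* that rods secrete, binds basigin-1 on the cone surface, and basigin-1 complexes with the glucose carrier GLUT1, the product of *Slc2a1*, so that more glucose enters the cone. A longer product of *Nxnl1*, RdCVFL, is a thioredoxin-like enzyme made when the intron that is retained for RdCVF is spliced out, and *Nxnl2* encodes the related RdCVF2 proteins. Basigin also chaperones the lactate carriers MCT1 (*Slc16a1*) and MCT4 (*Slc16a3*) to the membrane. In the rd1 retina the rods are lost first, and glucose shortage is one of the proposed stresses on the cones that remain. Counts per gene do not separate RdCVF from RdCVFL or the forms of basigin.

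In these cones *Bsg* had the most counts of the 9 genes in every library, and *Txnip*, *Slc16a3* and *Slc16a7* had at most 3 counts in any library. *Slc2a1* had a mean of 66.1 ± 47.5 CPM (counts scaled to 1e+06 per library, SD, n = 3) in TSA-treated cones and 8.82 ± 7.05 in control cones, a ratio of 7.49. *Nxnl2* had the lower mean in TSA-treated cones, 34.3 ± 31.1 CPM against 86.3 ± 28.9 (SD, n = 3). *Slc2a3* was read almost only in 1 control library. None of these differences passed the edgeR test described with each gene.

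The libraries held 9135389 to 13650676 counts in genes. All 10 listed cone markers were read in every library and took 3.13 to 5.28% of the control counts and 2.97 to 4.98% of the TSA counts, while rod markers took 1.42 to 1.74% and 0.902 to 1.44%. Markers of Müller glia held 1.43% of the counts of TSA replicate 1 (95% Wilson interval 1.43 to 1.44) and 0.0730 to 0.126% of the other 5 libraries, so that library stood apart. The libraries of a group differed strongly gene by gene. Of 6952 tested genes with a mean of at least 10 CPM, between 194 in TSA replicate 1 and 981 in control replicate 3 had 0 counts in a given library. Intervals and limits from counts cover counting error only, since PCR copies were not told apart.

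The upstream windows of 4 of these genes are printed as a description, and no expression result rests on them. The genes are the paralogs *Nxnl1* and *Nxnl2*, *Slc2a1*, the gene of the largest ratio in the TSA direction, and *Txnip*, nearly unread. The sequences are those of RefSeq (GRCm38.p6), where 6 of the 9 genes had an entry, and run 5′ to 3′ on the strand of the gene from 250 to 31 bases before its start in RefSeq. That start differs from the gene bounds given with the results, which are those of GENCODE: it lies 48 bases upstream for *Nxnl1*, 3 downstream for *Nxnl2* and 34 downstream for *Slc2a1*, and is the same for *Txnip*. Capitals mark matches, on either strand, to TAATCC (reverse GGATTA), a core bound by the photoreceptor factor Crx, to CCAAT (reverse ATTGG), and to ACGTG (reverse CACGT), the core of hypoxia response elements. ACGTG lies within the E-box CACGTG, which was searched as well.
Nxnl1, chr8:71566680-71566899, minus strand: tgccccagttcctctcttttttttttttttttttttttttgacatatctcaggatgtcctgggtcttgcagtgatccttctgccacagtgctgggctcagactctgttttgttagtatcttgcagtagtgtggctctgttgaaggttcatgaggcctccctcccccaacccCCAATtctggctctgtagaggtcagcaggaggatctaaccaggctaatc
Nxnl2, chr13:51170775-51170994, plus strand: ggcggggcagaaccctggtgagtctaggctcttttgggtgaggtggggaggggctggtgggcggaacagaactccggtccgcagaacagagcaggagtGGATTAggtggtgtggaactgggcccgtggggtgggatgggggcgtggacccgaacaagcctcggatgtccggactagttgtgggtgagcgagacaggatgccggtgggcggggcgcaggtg
Slc2a1, chr4:119108495-119108714, plus strand: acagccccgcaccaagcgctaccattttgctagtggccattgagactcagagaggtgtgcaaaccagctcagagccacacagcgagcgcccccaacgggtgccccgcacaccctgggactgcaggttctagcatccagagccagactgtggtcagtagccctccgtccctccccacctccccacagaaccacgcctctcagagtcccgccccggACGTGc
Txnip, chr3:96557707-96557926, plus strand: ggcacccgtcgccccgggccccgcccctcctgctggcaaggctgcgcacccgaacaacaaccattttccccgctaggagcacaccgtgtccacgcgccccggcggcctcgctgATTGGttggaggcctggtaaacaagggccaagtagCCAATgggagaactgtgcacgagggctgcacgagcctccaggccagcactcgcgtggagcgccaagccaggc
Counted from the RefSeq start, the *Nxnl1* window held 1 CCAAT, beginning 79 bases before it, and the *Nxnl2* window 1 GGATTA at 152 bases. The *Slc2a1* window held 1 ACGTG at 36 bases, which lies across the GENCODE start, and the *Txnip* window ATTGG and CCAAT at 137 and 102 bases. Of the windows not printed, that of *Slc16a1* held the E-box at 200 bases, the only one found, and that of *Slc16a3* held none of the motifs. Among all 32851 windows of this length, 5.64% held the Crx core, 31% a CCAAT, 14.4% an ACGTG and 5.01% an E-box. These matches describe letters and not sites of binding.

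Levels were compared between genes per kilobase of annotated exon. In control cones, *Bsg* came first at 148 ± 48.0 CPM per kb (SD, n = 3), followed by *Nxnl2* at 24.6 ± 8.24, and in each step the libraries did not overlap. *Slc16a1* at 8.46 ± 7.19, *Nxnl1* at 3.84 ± 3.40, *Slc2a3* at 2.53 ± 4.20 and *Slc2a1* at 2.52 ± 2.01 CPM per kb overlapped with their neighbours in this order. Within every control library *Slc16a1* was above *Nxnl1*, whereas the later steps of this order did not hold in all of them. In TSA-treated cones *Bsg* again came first, at 271 ± 170 CPM per kb, and *Slc2a1* was next in the order of means at 18.8 ± 13.5, with *Slc16a1* at 13.2 ± 12.2, *Nxnl1* at 12.7 ± 13.9 and *Nxnl2* at 9.78 ± 8.87 overlapping with it and with each other. The remaining genes had TSA means of at most 0.0243 CPM per kb. Values from here on are per gene and not per length.

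**Figure D1:**
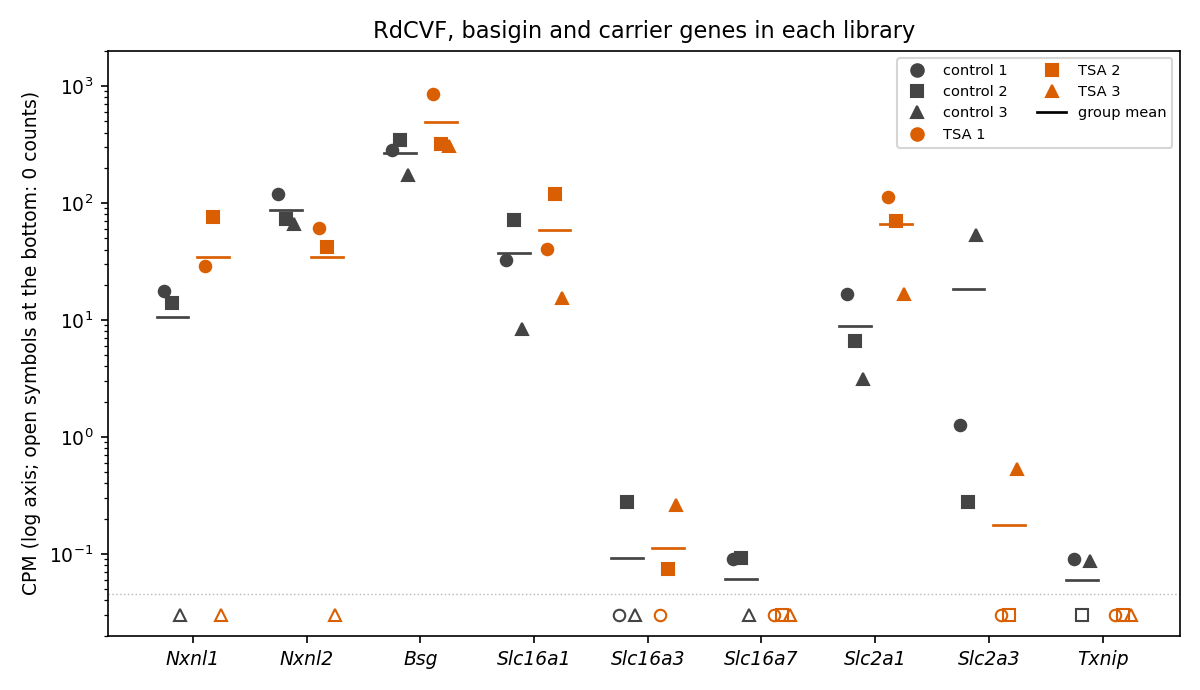
CPM of the 9 genes in each of the 6 libraries on a log axis, with symbols for the replicate number, a bar for each group mean and open symbols at the bottom for 0 counts. *Bsg* is at 175 CPM or more throughout, *Nxnl1* is at 0 in replicate 3 of both groups, and *Slc2a3* has 53.5 CPM in control replicate 3 only.

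*Nxnl1* (chromosome 8, 71560555 to 71566601, GRCm38, minus strand) was read in 4 of the 6 libraries. The control counts, in the order of replicates 1 to 3 kept from here on, were 195, 149 and 0, and the TSA counts were 415, 1003 and 0, or 17.6, 13.9 and 0 CPM against 28.6, 75.2 and 0. Both TSA libraries that held *Nxnl1* were above both such control libraries, but each group also had a library without it, so the groups overlapped. The counts of 0 allow up to 0.263 CPM in control replicate 3 and 0.264 in TSA replicate 3, below the level of the other libraries. The cone markers took 3.93 and 3.65% of the counts of those libraries, within the range of the rest. The log2 fold change was 1.72 (standard error 2.68, 95% interval -4.54 to 7.98), with an adjusted p of 1.00 from edgeR. It was 0.54 without TSA replicate 2 and 0.97 without control replicate 3.

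*Nxnl2* (chromosome 13, 51171022 to 51175188, plus strand), the paralog of *Nxnl1*, had the lower mean with TSA. Its control counts were 1321, 791 and 752, and its TSA counts 880, 562 and 0. In CPM these were 119, 73.6 and 65.9 against 60.7, 42.1 and 0, so every TSA library was below every control. The nearest libraries, control replicate 3 and TSA replicate 1, lay close together, and with the library totals as the only scaling the groups overlapped. The log2 fold change was -1.33 (standard error 1.91, 95% interval -5.77 to 3.11), with an adjusted p of 1.00 from edgeR. Without TSA replicate 3, the library at 0, the log2 fold change was -0.82. Thus neither gene of this pair differed beyond the spread between libraries, and the interval of each spans changes in both directions.

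*Bsg* (chromosome 10, 79704491 to 79711969, plus strand), the receptor of RdCVF and partner of GLUT1 and the lactate carriers, was the steadiest of the genes tested. The control libraries counted 3153, 3728 and 1995 reads of it, the TSA libraries 12286, 4286 and 3474. In CPM these were 285, 347 and 175 against 848, 321 and 306. TSA replicate 1 stood far above the rest, whereas the other TSA libraries lay within the range of the controls. Its standard deviation of log2 CPM within groups was 0.69, at the 14th percentile of the 6952 tested genes with a mean of at least 10 CPM, while *Nxnl1* stood at the 92.7th. The log2 fold change was 0.87 (standard error 0.59, 95% interval -0.51 to 2.25), with an adjusted p of 0.946 from edgeR. Without TSA replicate 1 it was 0.27 and without control replicate 3 it was 0.48. In bulk samples of this kind, fewer cells of a type and less RNA per cell cannot be told apart. TSA replicate 1 was also the library with 1.43% of Müller glia markers and 0.195% of microglia markers (0.193 to 0.198, 95% Wilson interval). It was highest for markers of neurons of the inner retina as well. Bipolar markers took 0.318% of its counts and 0.0765 to 0.177% in the other libraries. Amacrine markers took 0.0215% of its counts and at most 0.00730% in the others. The part of these cells in the *Bsg* count was not tested.

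*Slc16a1* (chromosome 3, 104638668 to 104658462, plus strand), which encodes the lactate and pyruvate carrier MCT1, was the only carrier of its group read in all libraries. Control counts of 359, 768 and 96 stood beside TSA counts of 586, 1590 and 175, or 32.4, 71.5 and 8.41 CPM against 40.4, 119 and 15.4. The range within each group, from 8.41 to 71.5 and from 15.4 to 119 CPM, was far wider than the distance between the means of 37.4 ± 31.8 and 58.3 ± 54.2 CPM (SD, n = 3). The log2 fold change of 0.64 (standard error 1.36, 95% interval -2.54 to 3.82) had an adjusted p of 1.00 from edgeR. The sign turned without TSA replicate 2 (-0.38) and without control replicate 3 (-0.02).

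*Slc16a3* (chromosome 11, 120948480 to 120960868, plus strand), which encodes MCT4, a lactate exporter of glycolytic cells, was all but unread, with control counts of 0, 3 and 0 beside TSA counts of 0, 1 and 3. The ratio of TSA to control over the pooled counts, scaled by TMM-adjusted totals, was 1.13, and its 95% counting interval of 0.191 to 7.72 covers large differences in both directions. *Slc16a7* (chromosome 10, 125219270 to 125389465, minus strand), which encodes MCT2, a carrier of high affinity for lactate and pyruvate, was found once in control replicates 1 and 2 and had 0 counts elsewhere. Per library total the 2 genes reached at most 0.328 CPM, below the filter of 1 CPM, and neither was tested.

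*Slc2a1* (chromosome 4, 119108711 to 119137983, plus strand), the gene of GLUT1 and the main route of glucose into photoreceptors, had the largest ratio in the TSA direction. Its reads numbered 185, 71 and 36 in control cones but 1615, 935 and 190 in TSA-treated cones. In CPM these were 16.7, 6.61 and 3.16 against 111, 70.1 and 16.7. TSA replicates 1 and 2 were well above all controls, but TSA replicate 3 and control replicate 1 met at 16.7 CPM, and with size factors of the DESeq2 kind the groups overlapped. The log2 fold change was 2.90 (standard error 1.47, 95% interval -0.53 to 6.34), with an unadjusted p of 0.0863 and an adjusted p of 0.640 from edgeR. It kept its sign when any library was left out, between 2.36 (without control replicate 3) and 3.72 (without control replicate 1). DESeq2 gave an unadjusted p of 0.0137 and an adjusted p of 0.116.

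GLUT1 is also carried by pigment epithelium, vessels and Müller glia, so the markers of these cells were read beside it. Their part in the *Slc2a1* counts was not tested. In TSA replicate 2, with 70.1 CPM of *Slc2a1*, markers of Müller glia took 0.0788% of the counts (95% Wilson interval 0.0772 to 0.0804), below the 0.0922 to 0.126% of the controls. Within that list *Slc1a3*, a glutamate carrier of Müller glia, had 381 counts in the same library, more than the controls with 248, 8 and 1. The other markers of the list lay within the range of the control counts in that library. Those of pigment epithelium took 0.00634 to 0.0256% in the TSA libraries and 0.0123 to 0.0340% in the controls. Those of endothelium took 0.000141 to 0.00754% and 0.000725 to 0.00261%, with 6, 4 and 3 of 10 markers at 0 in TSA replicates 1 to 3 and 3, 0 and 6 in the controls. Of these lists, Müller glia and endothelium were highest in TSA replicate 1, which also had the highest *Slc2a1*. Without that library the log2 fold change of *Slc2a1* was 2.40, with an adjusted p of 1.00 from edgeR.

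**Figure D2:**
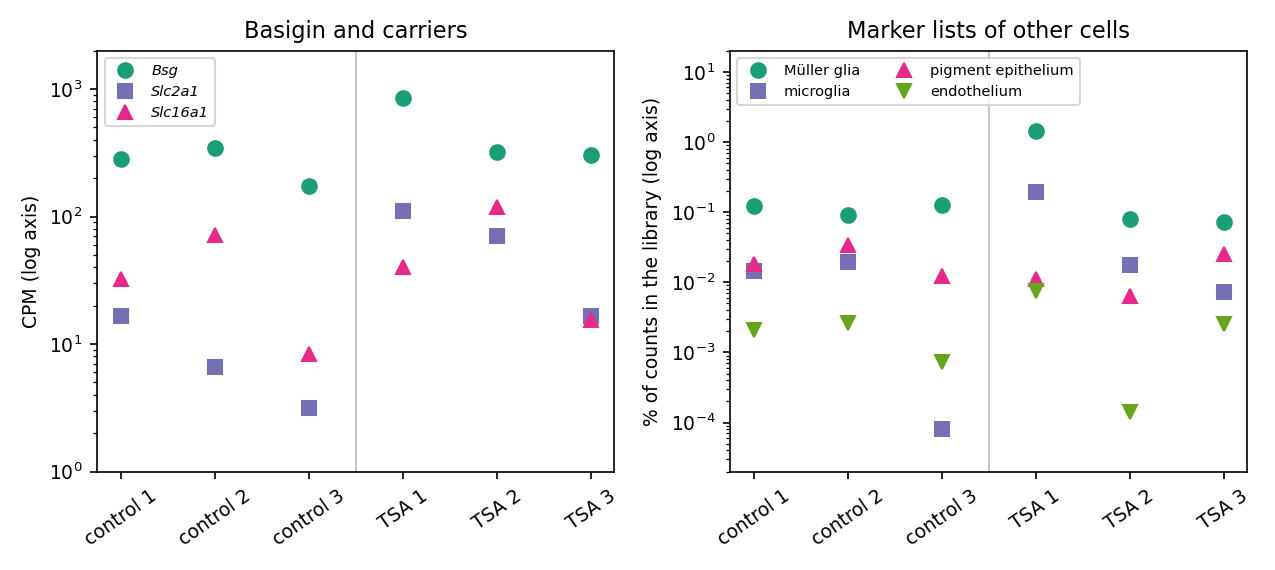
Left, CPM of *Bsg*, *Slc2a1* and *Slc16a1* in each library; right, the percentage of counts held by marker lists of 4 other cell types, both on log axes with the controls left of the line. TSA replicate 1 is highest for *Bsg*, *Slc2a1* and the markers of Müller glia, microglia and endothelium. The part of these cells in the gene levels was not tested.

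*Slc2a3* (chromosome 6, 122727809 to 122801640, minus strand), which encodes GLUT3, the glucose carrier of many neurons, had control counts of 14, 3 and 610 and TSA counts of 0, 0 and 6. Control replicate 3 held 97.3% of its control counts, and the other libraries of both groups had at most 1.26 CPM and overlapped. The gene passed the filter through the control group alone, where the next library, control replicate 1, stood at 1.03 CPM of its total, just inside the minimum of 1. The log2 fold change of -6.64 (standard error 3.08, 95% interval -13.8 to 0.55) had an unadjusted p of 0.0655 and an adjusted p of 0.555 from edgeR. Without control replicate 3 or without control replicate 1 the gene did not pass the filter, and DESeq2 gave it no p. Without TSA replicate 3, which held all 6 TSA counts, the fitted log2 fold change was -10.77, a value that depends on the prior count since the TSA libraries left are at 0, with an unadjusted p of 0.0446 and an adjusted p of 0.492 from edgeR.

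*Txnip* (chromosome 3, 96557957 to 96561883, plus strand), the thioredoxin-interacting protein that removes GLUT1 from the cell surface and is induced by glucose in many cell types, was nearly unread. Control replicates 1 and 3 held 1 count each and the other libraries 0. In the TSA libraries 0 counts allow up to 0.264 CPM at most. The antisense gene *Gm15441*, which spans *Txnip* on the minus strand and shares 606 bp (19.4%) of its exon sequence, had control counts of 0, 0 and 207 and TSA counts of 0, 27 and 494. A strand setting of the counting is not given in the sources used here, so reads of *Txnip* and *Gm15441* in the shared stretch cannot be told apart, and the low count of *Txnip* is uncertain to that extent. Of the other 8 genes, *Slc2a1* shared 2.99% and *Slc16a7* 1.51% of its exon sequence with an overlapping gene.

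Of the 9 genes, 6 passed the filter, and 0 of these 6 were higher or lower at an adjusted p under 0.05 in edgeR, as in 0% of the 9621 genes tested. DESeq2, which called 9.53% of the 8984 genes it gave an adjusted p, and limma-voom, which called 0.385% of 9621, also called 0 of them. With the unadjusted p at 0.05 or less it was also 0 of 6 in edgeR, where the share of all genes tested was 10.3%. DESeq2 had 1 of the 5 genes it gave a p, *Slc2a1* (higher), beside 15.6% of all genes. Limma-voom had 1 of 6, *Slc2a3* (lower), beside 12.4%. By edgeR, 8.02% of the genes tested were higher and 2.30% lower. The groups did not overlap for *Slc2a1* (TSA above) and *Nxnl2* (TSA below), against 6.39% and 3.70% of all genes tested, and each of these separations was lost under another scaling. The fold change was above 0 in 4 genes and below 0 in 2, with a median log2 fold change of 0.76, beside 0.03 over all genes tested. The 9 genes together held 0.0424% ± 0.0163 of the control counts and 0.0747% ± 0.0475 of the TSA counts (SD, n = 3), a difference with p = 0.3 in a two-sided exact permutation test, where the smallest p possible is 0.1. *Bsg* made up 51.2 to 90.3% of these counts, and the difference of 0.0324 percentage points was 0.00739 without TSA replicate 1.

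**Figure D3:**
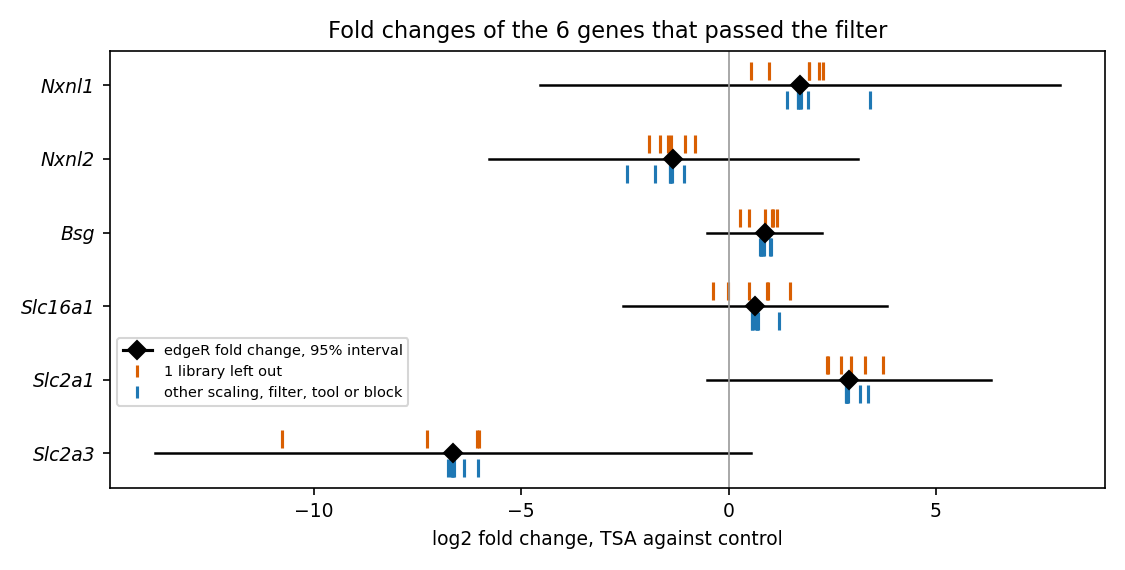
Log2 fold change of TSA against control for the 6 genes that passed the filter, with 95% intervals from edgeR (lines), values with 1 library left out (upper ticks) and values under another scaling, filter, tool or block (lower ticks). Every interval includes 0, and the ticks cross 0 only for *Slc16a1*.

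Around these genes, 55 listed genes of the same route were counted, of which 17 passed the filter. Among the 17, the fitted level was higher with TSA for 2 and lower for 0 with an unadjusted p of at most 0.05 (8.02% and 2.30% of all genes tested), 0 passed when adjusted over all genes, and the median log2 fold change was 0.21. *Arrdc4*, an arrestin-domain relative of *Txnip* that likewise acts on GLUT1, gave 21, 13 and 12 control counts against 660, 26 and 543 with TSA. In CPM these were 1.90, 1.21 and 1.05 against 45.5, 1.95 and 47.8, so the groups did not overlap, although TSA replicate 2 and control replicate 1 lay close together. Its log2 fold change was 4.51 (standard error 1.91), with an unadjusted p of 0.0483 and an adjusted p of 0.477 from edgeR. DESeq2 gave an adjusted p of 0.0119, and over all alternatives the adjusted p ran from 0.0119 to 1.00. *Ldha*, the lactate dehydrogenase that turns pyruvate into lactate, was the other one, with control levels of 356, 200.2 and 140 CPM and TSA levels of 427, 599.7 and 836. All TSA libraries were above all controls, with a log2 fold change of 1.42 (standard error 0.55), an unadjusted p of 0.0329 and an adjusted p of 0.414 from edgeR. Over the alternatives its adjusted p ran from 0.368 to 0.946. *Hk1*, a hexokinase, the enzyme that starts glycolysis, separated the other way, with control levels of 65.5, 81.8 and 51.0 CPM and TSA levels of 28.6, 45.1 and 34.7. Its log2 fold change of -0.87 (standard error 1.06) had an unadjusted p of 0.435 and an adjusted p of 1.00 from edgeR.

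No other listed gene that was tested had an unadjusted p of 0.05 or less in edgeR. Of 11 further glucose carriers, 0 passed the filter, and the highest mean, that of the intracellular carrier *Slc2a8*, came from 857 counts in TSA replicate 3, with at most 1 in any other library. Of 15 further monocarboxylate carriers, 3 were tested, led by *Mpc2*, a subunit of the mitochondrial pyruvate carrier, with 558 ± 198 CPM without TSA and 647 ± 393 with it (SD, n = 3). *Slc16a8*, the lactate carrier MCT3 of the pigment epithelium, had 2 counts in control replicate 3 and 0 elsewhere. *Nptn*, the basigin relative neuroplastin, had 68.0 ± 45.1 and 102 ± 42.2 CPM. *Txn2*, the mitochondrial thioredoxin, had 658 ± 99.7 and 751 ± 50.7 CPM. Of 8 listed regulators, 4 were tested, led by the photoreceptor factor *Crx* at 234 ± 113 and 181 ± 48.2 CPM. *Mlxip* and *Mlxipl*, whose products switch on *Txnip* when glucose is plentiful, had at most 8 counts in any library.

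**Figure D4:**
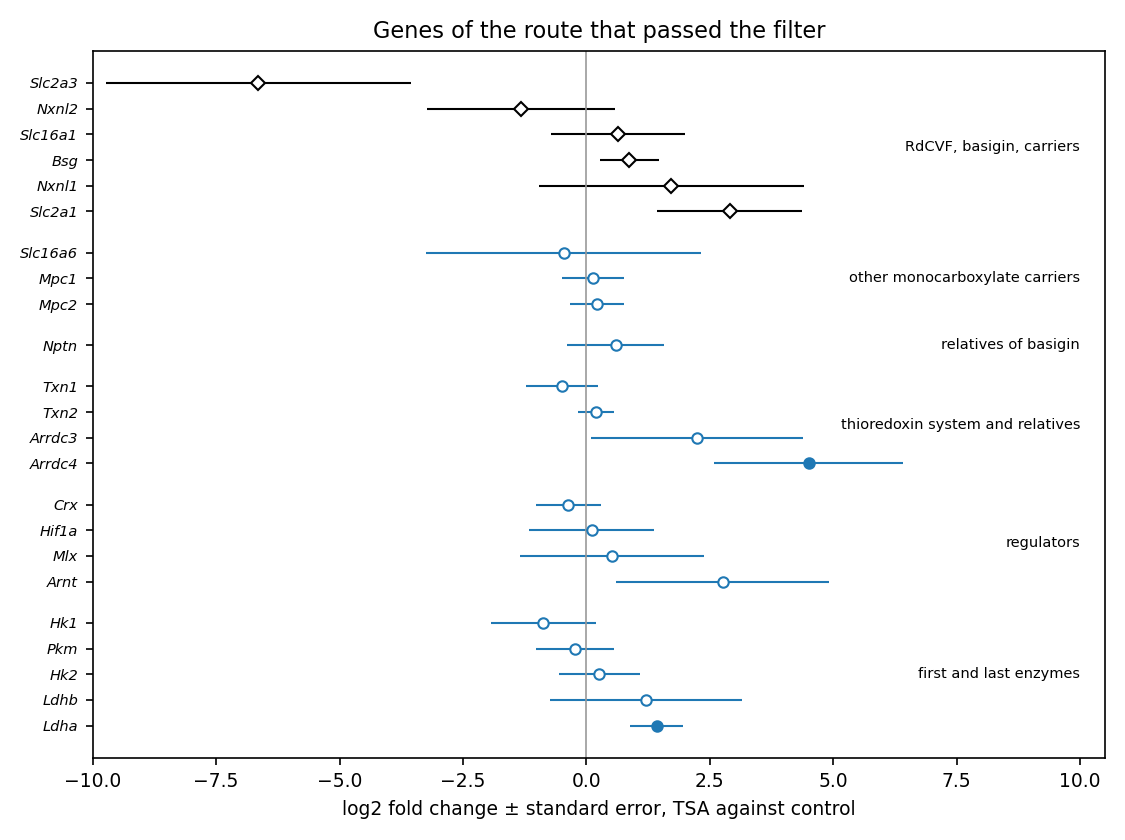
Log2 fold change of TSA against control with its standard error for the 6 genes (diamonds) and for 17 other genes of the route that passed the filter (circles), by list. Filled symbols mark an unadjusted p of 0.05 or less, which *Arrdc4* and *Ldha* reached and the diamonds did not.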

How the data were processed

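The deposited table holds raw counts per gene, which the authors made by trimming single reads, aligning them to GRCm38 with STAR 2.5.4a and counting them with Subread 1.6.0. The authors' other deposited table holds their own test results (differences, test statistics and p-values) and was not used. The 9 genes and the lists were chosen with earlier results of these data known.

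A gene was tested (9621 of 46078) where 2 or more libraries of either group exceeded 1 CPM of the library total. The groups were compared in edgeR 4.0.16 (R 4.3.3) after TMM scaling, by its quasi-likelihood F test, two-sided. P-values were adjusted by Benjamini and Hochberg over every tested gene, and a gene was called below 0.05. The standard error is the log2 fold change divided by the root of the test's F, and 95% intervals use its degrees of freedom. CPM of single genes use TMM-adjusted totals. Log2 CPM has a prior count of 2. A count of 0 allows up to 3 counts. The procedure was tested on simulated counts, where a pass was required only at a dispersion far below the 2.16 of these data. Its power at the dispersion of these data is not given here. Exon lengths come from GENCODE M21 (GRCm38), whereas the methods name an earlier Ensembl annotation for the counting. The text names the 9 genes and, from each list, genes whose unadjusted p was at most 0.05 and the gene of highest mean; *Gm15441*, *Slc1a3*, *Hk1*, *Slc16a8*, *Mlxip* and *Mlxipl* were added after their values were seen. Alternatives covered scaling, filter, DESeq2 1.42.0, limma-voom (limma 3.58.1), the replicate number as a block and each library left out.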

Additional observations from a re-analysis of the deposited data

How the results depend on the processing

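The count of called genes among the 9 was 0 under all 13 alternatives, but all 9 were tested only without a filter. The other alternatives tested 6 of them, or 5 without control replicate 1 or control replicate 3, and DESeq2 gave a p to 5. Over all genes tested, the count of called genes was 0 in the edgeR fit described and 11 without a filter, 856 by DESeq2 and 37 by limma-voom. With the unadjusted p at 0.05 or less, where edgeR gave 993 genes, it gave 2780 without a filter, 621 with the replicate block and 585 to 864 with 1 library left out, while DESeq2 gave 1403 and limma-voom 1189. Among the 9 genes the count at that p was 1 instead of 0 by DESeq2 (*Slc2a1*), by limma-voom and with the replicate block (*Slc2a3*), and 0 to 1 with 1 library left out (1 without TSA replicate 3, *Slc2a3*). Same-numbered libraries hardly deviated together (r from -0.01 to 0.06 across genes). Control replicate 1 correlated best with TSA replicate 3, control replicate 2 with TSA replicate 2 and control replicate 3 with TSA replicate 3. In CPM, *Nxnl2*, *Slc2a1* and *Slc16a1* had the same order of replicates in both groups, whereas *Nxnl1* and *Bsg* did not. The labels do not say whether equal numbers mark a pair. The sign of *Slc16a1* turned without control replicate 3 (-0.02) and TSA replicate 2 (-0.38), in a range of -0.38 to 1.49, and that of *Mpc2* with limma-voom (-0.27) and in a range of -0.48 to 0.52 with 1 library left out. The cause of these differences was not tested. The other 5 tested genes of the 9 kept their sign. The difference in their joint share of counts stayed above 0, between 0.00739 and 0.0546 percentage points with 1 library left out (lowest without TSA replicate 1). Without a filter, the unadjusted p was 0.866 for *Slc16a3* and 0.189 for *Slc16a7* and *Txnip*. The median log2 fold change of all genes was 0.03 with TMM, -0.05 with DESeq2 size factors and 0.14 with the totals alone. The alternatives for *Mpc2*, *Nptn*, *Txn2*, *Arrdc4*, *Crx* and *Ldha* were added after the data were seen.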

Other observations

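Counts of 0 of the kind seen in *Nxnl1* and *Nxnl2* occurred throughout these libraries. Of the 6952 tested genes with a mean of at least 10 CPM, 4635 were read in all 6 libraries. Like *Nxnl1*, 120 of the 6952 were at 0 in exactly control replicate 3 and TSA replicate 3. Counts for other pairs of libraries are not given, so the 120 have no baseline. Like *Nxnl2*, 353 of the 6952 were at 0 in TSA replicate 3 alone.

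The genes whose profile over the 6 libraries was most like that of *Bsg*, by the root mean square difference of centred log2 CPM among 6951 genes, were *C87436* (0.28), *Ndfip2* (0.33) and *Itm2b* (0.37), beside a median of 2.57. This is a description of 6 libraries with no test. *Ndfip2* encodes an adaptor of Nedd4-type ubiquitin ligases, and *Itm2b* a membrane protein known from retinal and brain disease.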
